A study of Mus musculus with 2 samples.

Results

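The embryonic and adult globin genes were examined together with erythroid regulators and the erythroid enzyme of haem synthesis, 10 genes of the 29311 listed in the 2 gene tables. They were chosen by symbol, with earlier results of these data known. *Hbb-y* and *Hbb-bh1* encode embryonic beta-like chains and *Hba-x* the embryonic alpha-like chain, *Hba-a1* and *Hba-a2* encode adult alpha chains and *Hbb-b1* and *Hbb-b2* adult beta chains. The remaining members are *Gata1* and *Klf1*, which encode transcription factors of red cell development, and *Alas2*, which encodes the erythroid form of the first enzyme of haem synthesis. All 10 genes were listed in both tables.

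The study asked how chromatin at *Hox* loci is organised over time in the embryo, and its RNA-seq compared embryonic stem (ES) cells with the forebrain of the mouse embryo. ES cells are pluripotent cells of the early embryo kept in culture. They were of the E14 line, labelled wild type (WT), and were grown without feeder cells in medium with serum and LIF. The forebrain was taken from B6CBAF1/J embryos at E10.5, likewise labelled WT, and each group was 1 library of total RNA depleted of rRNA, so that the comparison had no replicates and no test between the samples could be made. Strain, culture and tissue differed together between the 2 libraries and cannot be told apart. The methods give single embryos as the source of the tissue RNA, whereas the labels give 1000000 cells for each sample.

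Haemoglobin carries oxygen in red cells and is assembled from alpha-like and beta-like globin chains, each of which holds a haem group. In the mouse the first red cells, called primitive, form in the yolk sac, enter the circulation while they still have a nucleus and make the embryonic chains. Definitive red cells, formed later from the fetal liver onwards, make the adult chains, although the adult alpha genes are already used in primitive cells. The brain is not a site of red cell formation. *Gata1* binds GATA sequences and *Klf1* binds CACC boxes in the promoters and enhancers of globin and other erythroid genes.

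The genes lie in separate clusters and elsewhere in the genome, with coordinates given for NCBIM37 (mm9). The beta-like genes occupy chr7:110961038-111001754 on the minus strand in the order *Hbb-y*, *Hbb-bh1*, *Hbb-b1* and *Hbb-b2*. The alpha-like members *Hba-x*, *Hba-a1* and *Hba-a2* lie within chr11:32176400-32200873 on the plus strand. *Gata1* is at chrX:7536386-7555197, *Klf1* at chr8:87425827-87429194 and *Alas2* at chrX:146981918-147005181.

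Promoter sequences were available for 9 of the 10 members in RefSeq (GRCm38.p6), under the symbols Hbb-bs and Hbb-bt for the genes at the places of *Hbb-b1* and *Hbb-b2*. There was no entry for *Hbb-bh1*. The 120 bases before the RefSeq start site are printed for 1 gene of each globin class, for both adult beta genes, whose coding sequences are nearly the same, and for *Klf1* and *Alas2*, because these genes were higher together in 1 of the samples. Each sequence was found without a difference in NCBIM37. GENCODE M1 places the outermost start of these genes further upstream than RefSeq, by 3 bases in *Hba-a2*, 33 in *Hbb-y* and up to 200 in *Hba-x*. Capitals mark matches on either strand of the TATA box (TATAAA) or its variant form (ATAAAA), of the CCAAT box, of the CACC box (CCNCNCCC) or its shorter form (CCACCC), and of the GATA motif (AGATAA or, in its second form, TGATAA).
Hbb-y: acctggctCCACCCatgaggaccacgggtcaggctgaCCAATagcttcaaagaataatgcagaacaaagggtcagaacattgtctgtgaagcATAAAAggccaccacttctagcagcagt
Hba-x: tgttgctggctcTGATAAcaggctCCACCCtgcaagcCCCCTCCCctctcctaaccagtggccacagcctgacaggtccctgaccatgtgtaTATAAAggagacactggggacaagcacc
Hba-a2: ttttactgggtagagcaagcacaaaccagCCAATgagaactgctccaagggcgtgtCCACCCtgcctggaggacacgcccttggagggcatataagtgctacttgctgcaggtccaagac
Hbb-b1: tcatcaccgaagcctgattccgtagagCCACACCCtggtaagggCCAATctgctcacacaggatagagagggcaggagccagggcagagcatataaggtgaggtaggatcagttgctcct
Hbb-b2: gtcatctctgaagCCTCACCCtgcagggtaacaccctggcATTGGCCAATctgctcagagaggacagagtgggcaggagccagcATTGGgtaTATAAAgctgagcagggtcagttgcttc
Klf1: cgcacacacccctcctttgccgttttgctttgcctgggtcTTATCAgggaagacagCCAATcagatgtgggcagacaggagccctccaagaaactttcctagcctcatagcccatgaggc
Alas2: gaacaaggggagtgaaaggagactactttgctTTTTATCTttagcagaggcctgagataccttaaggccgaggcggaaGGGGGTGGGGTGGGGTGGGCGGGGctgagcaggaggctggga
The *Hbb-y* sequence is chr7:111001722-111001841 (minus strand), that of *Hba-x* is chr11:32176480-32176599 (plus strand) and that of *Hba-a2* is chr11:32196372-32196491 (plus strand). The adult beta sequences are chr7:110976443-110976562 (minus strand) and chr7:110962438-110962557 (minus strand). Those of *Klf1* and *Alas2* are chr8:87425761-87425880 (plus strand) and chrX:146981840-146981959 (plus strand).

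Motifs were counted in the 250 bases before the start. A CCAAT box was found in 5 of the 6 globin promoters read, all but that of *Hba-x*, and in 33.8% of all 32851 promoters of the table. The CACC box in its longer form (CCNCNCCC) was in 3 of the 6 globin promoters and in 45.9% of all promoters. The shorter form was added after the sequences had been seen. With it, at least 1 form was in all 6 globin promoters, and in 54.2% of all promoters. These forms can overlap. A GATA motif was in 5 of the 6 globin promoters and in those of *Klf1* and *Alas2* but not of *Gata1*, against 16.6% of all promoters. The *Hba-a1* and *Hba-a2* promoter sequences each had 2 exact places on chromosome 11. These 2 promoters are therefore not independent in any globin count here. The exact string TATAAA or ATAAAA was in 3 of the 6 globin promoters and in 22.8% of all promoters. In *Hbb-y*, *Hba-x* and *Hbb-b2* it began 28 bases before the start. The printed *Hba-a2* and *Hbb-b1* sequences hold TATAAG near that place, which neither string matches. A missing match therefore does not mean that a TATA box is absent. A match describes the letters and not a bound site.

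Values are RPKM as the authors deposited them, a read count per gene length. The median gene of the ES cell sample had an RPKM of 48.94 and that of the forebrain sample 62.37, and the median log2 ratio of all genes, taken as log2((forebrain RPKM + 1)/(ES RPKM + 1)), was 0.01. Reads were inferred from the step between low values and came to 42785033 on genes for the ES cell library and 59791170 for the forebrain library. The deposited RPKM were 52.2 and 49.0 times higher than reads per kb and per 1000000 of these inferred reads, so they should be read relative to other genes of the tables. Intervals given below are 95% counting intervals on inferred reads and cover counting error only, neither biological variation nor PCR duplicates. Of the lists that mark the tissues, 9 of 10 ES cell genes were at least 4-fold lower in forebrain and 11 of 11 listed forebrain genes at least 4-fold higher, among them *Pou5f1* (RPKM of 11243.84 in ES cells and 42.90 in forebrain) and *Lhx2* (0.00 and 876.64).

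By the quotient of RPKM, all 7 globin genes were more than 1000 times higher in E10.5 forebrain than in ES cells. The intervals of *Hbb-b1* and *Hbb-b2*, on few ES reads, reached down to 581 and 621. The 3 other members were higher by 9.94 to 37.2 times. Thus 10 of 10 members were at least 4-fold higher in forebrain on the log2(RPKM + 1) scale, as were 14.4% of all listed genes, and 0 were at least 4-fold lower, as were 11.3%. All 10 also passed 2-fold, as did 25.8% of genes in this direction and 23.3% in the other. In such a bulk sample fewer cells of a type and less RNA per cell cannot be told apart.

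The embryonic beta-like genes had the highest levels. *Hbb-y* had an RPKM of 167.15 in ES cells (91 inferred reads, interval 135.3 to 206.3) and of 367633.15 in forebrain (296710 reads), a ratio of 2199 with an interval of 1782 to 2717. *Hbb-bh1* had 100.41 in ES cells (51 reads, interval 75.50 to 133.3) and 277515.80 in forebrain (208052 reads), a ratio of 2764 (2081 to 3676). In forebrain these genes ranked 2 and 3 among protein-coding genes by RPKM, whereas in ES cells they ranked 8032 and 9298.

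*Hba-x*, the embryonic alpha-like gene, was lower than the adult alpha genes in both samples. Its RPKM was 6.51 in ES cells (5 reads, interval 2.113 to 15.19) and 27785.74 in forebrain (31823 reads), a ratio of 4268 whose interval was wide, 1829 to 13151, because of the few ES reads. It ranked 18 among protein-coding genes in forebrain.

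The adult alpha genes were close to each other in each sample. *Hba-a1* had 43.60 in ES cells (29 reads) and 123310.34 in forebrain (122256 reads), a ratio of 2828 (1969 to 4223). *Hba-a2* had 43.73 (24 reads) and 115002.65 (94080 reads), a ratio of 2630 (1767 to 4105). Their places in forebrain were 4 and 5 among protein-coding genes, directly after the embryonic beta-like genes.

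The adult beta genes were the lowest globin members in forebrain. In ES cells each was also lowest by its own value, but the intervals overlapped that of *Hba-x*. Their sum there, 6.84, was slightly above the 6.51 of *Hba-x*. *Hbb-b1* had 4.24 in ES cells on 3 reads and 7211.09 in forebrain on 7598 reads, a ratio of 1701 (581 to 8241). *Hbb-b2* had 2.60 in ES cells, which corresponds to between 1 and 2 reads, as reads could be divided between genes, and 6006.66 in forebrain on 5156 reads, a ratio of 2310 (621 to 136650). Summed, the pair had 6.84 and 13217.75, a ratio of 1932 (754.5 to 7093). Even so, *Hbb-b1* and *Hbb-b2* ranked 139 and 190 among protein-coding genes in forebrain.

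**Figure D1:**
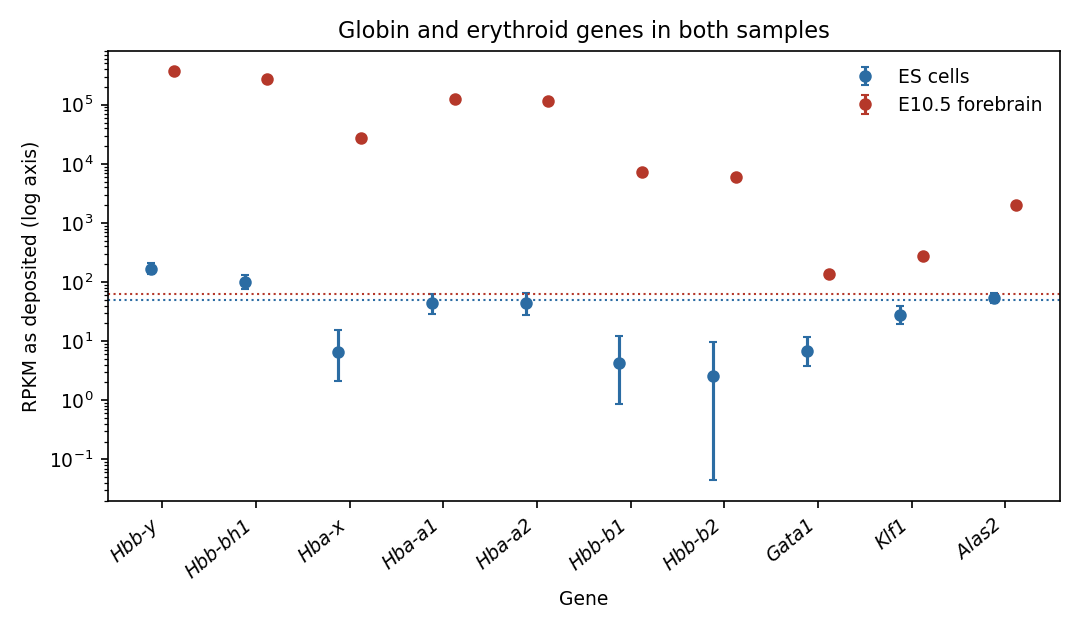
RPKM of the 10 members (log axis) in ES cells (blue) and E10.5 forebrain (red), 1 sample each. Bars are 95% counting intervals on inferred reads, and the dotted lines are the medians of all listed genes, 48.94 and 62.37. Of the globins only *Hbb-y* and *Hbb-bh1* lie above the median gene in ES cells, and in forebrain all 10 members do.

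The adult copies can share reads. The coding sequences of *Hba-a1* and *Hba-a2* were 99.8% identical, with 1 base different of 429, and those of *Hbb-b1* and *Hbb-b2* were also 99.8% identical, with 1 base different of 444. Of the 50-base windows of the *Hba-a2* transcript, 86.9% also occurred in *Hba-a1*, and with 100 bases 74.5% did. For *Hbb-b1* and *Hbb-b2* the shares of 50-base windows were 52.3% and 58.3%. Both lengths were tried because the methods give reads of 50 bp and the labels 100 bp. The split between near-identical copies is therefore uncertain, and their sums are the firmer values.

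The embryonic members did not have this limit. No window of 50 bases of *Hbb-y*, *Hbb-bh1* or *Hba-x* occurred in another protein-coding gene or in the globin pseudogenes searched. *Hbb-y* and *Hbb-bh1* were 76.4% identical over their coding sequence, *Hbb-y* and *Hbb-b1* 74.3%, and *Hba-x* and *Hba-a1* 64.1%. Nor did any 50-base window of *Gata1* or *Klf1* occur elsewhere among these sequences. *Alas2* overlaps *Apex2* on the opposite strand by 311 of its 2403 exonic bases, 12.9%. The libraries were made with a stranded kit, but whether strand was used in counting is not given in the sources used here.

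Embryonic and adult globins were next compared within each sample. In forebrain, *Hbb-y* and *Hbb-bh1* made up 98.0% of the summed beta-like RPKM. In ES cells they made up 97.5%, and on reads 141 of 145, 97.2% with an exact binomial interval of 93.1 to 99.2%. The forebrain share on reads, 97.5%, lay inside that interval, so no difference in the embryonic beta-like share was detectable at this depth.

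Among alpha-like chains the embryonic gene was the minor one. *Hba-x* made up 10.4% of the summed alpha-like RPKM in forebrain and 6.94% in ES cells, and 18.4% and 13.0% where only the higher of the adult alpha copies was counted. On reads the share was 12.8% in forebrain and 8.62% in ES cells, 5 of 58 reads, with an interval of 2.86 to 19.0% that holds the forebrain share. Thus embryonic chains predominated among the beta-like RNAs and adult chains among the alpha-like RNAs, in both samples.

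Alpha-like RPKM was lower than beta-like RPKM. The ratio of the sums was 0.404 in forebrain (266098.73 over 658366.70) and 0.342 in ES cells (93.84 over 274.40). On reads, not corrected for length, it was 0.480 (0.477 to 0.482) and 0.400 (0.290 to 0.546). *Hbb-y* exceeded *Hbb-bh1* 1.32 times in forebrain and 1.66 times in ES cells. *Hba-a1* was 4.44 times *Hba-x* in forebrain and 6.70 times in ES cells.

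**Figure D2:**
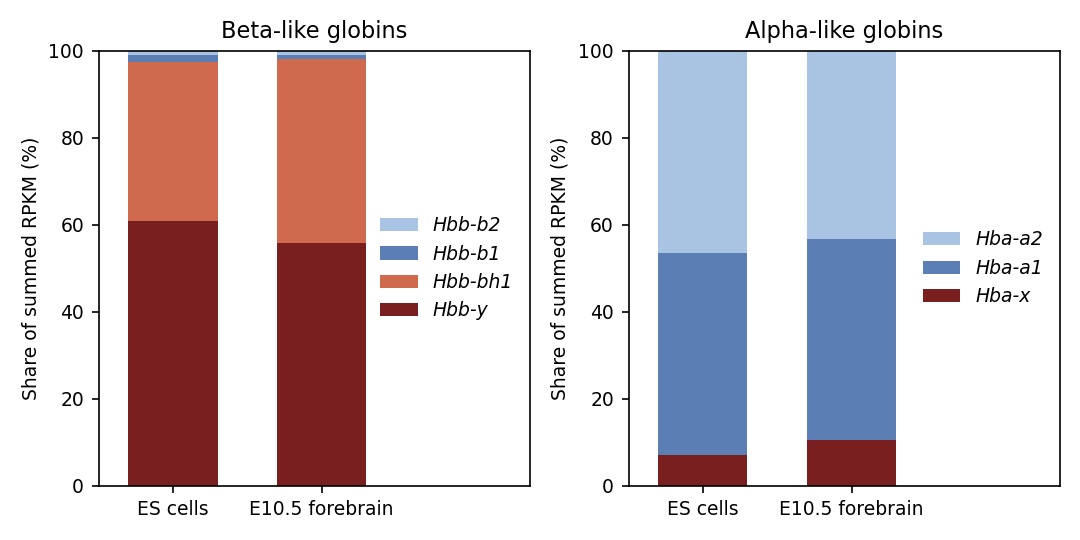
Share of each gene in the summed RPKM (%) of the beta-like globins (left) and alpha-like globins (right), per sample, with 1 sample each. Embryonic genes are in red tones and adult genes in blue tones. The embryonic beta-like genes hold 97.5% (ES cells) and 98.0% (forebrain), and *Hba-x* 6.94% and 10.4% of the alpha-like RPKM.

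The 7 globins summed to an RPKM of 368.24 in ES cells and 924465.43 in forebrain, a ratio of 2510. They took 204 of the inferred reads on genes in ES cells, 0.000477% (Wilson interval 0.000416 to 0.000547), and 765676 reads in forebrain, 1.28%. Taken by class, the ratio was 2411 for the embryonic beta-like genes (2044 to 2865), 2729 for the adult alpha genes (2086 to 3643), 1932 for the adult beta genes (754.5 to 7093) and 4268 for *Hba-x* (1829 to 13146). These intervals overlap one another.

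Expressed as a percent of the forebrain level, the ES level of the 7 globins lay between 0.0234% (*Hba-x*) and 0.0588% (*Hbb-b1*), with a median of 0.0380%. Among the 2512 other protein-coding genes that reached 1000 RPKM in forebrain, 0 had an ES percentage below the highest of these. The lowest was *Col3a1*, a fibrillar collagen gene, at 0.0699%, and the erythroid anion exchanger gene *Slc4a1* was at 0.184%. In the opposite direction, 5 of 2666 protein-coding genes with at least 1000 in ES cells were below 0.0588% of that level in forebrain, among them *Dppa5a* at 0.0581%. The source of the few globin reads in the ES library was not tested.

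The regulators and *Alas2* had much smaller ratios than the globins. *Gata1* had an RPKM of 6.76 in ES cells (14 reads, interval 3.833 to 11.76) and 137.91 in forebrain (411 reads), a ratio of 20.4 (11.6 to 36.3). *Klf1* had 27.86 in ES cells (35 reads, 19.40 to 38.74) and 276.86 in forebrain (519 reads), a ratio of 9.94 (7.06 to 14.4). The ES level of *Gata1* relative to forebrain had an interval of 2.75 to 8.62% and that of *Klf1* of 6.93 to 14.2%, and both lay above the intervals of all 7 globins.

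*Alas2* lay between the regulators and the globins by its ratio, although its interval overlapped that of *Gata1*. It had 53.85 in ES cells (106 reads, 44.09 to 65.13) and 2003.07 in forebrain (5877 reads), a ratio of 37.2 (30.7 to 45.5). *Apex2*, with which it shares exonic bases, had 121.49 and 169.72. The quotient *Alas2* to *Klf1* was 7.23 in forebrain and 1.93 in ES cells, and that of *Klf1* to *Gata1* 2.01 and 4.12. By log2 ratio, *Alas2* ranked 518, *Gata1* 975 and *Klf1* 1488 of 13589 protein-coding genes with at least 50 reads in forebrain. The 7 globins held ranks 1 to 7 there, where the read filter used the sample in which they were high. Among all listed genes, of any type and read count, the globins lay between rank 2 (*Hba-x*) and rank 12 (*Hbb-b1*). On that scale *Alas2* ranked 685, *Gata1* 1334 and *Klf1* 2175.

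**Figure D3:**
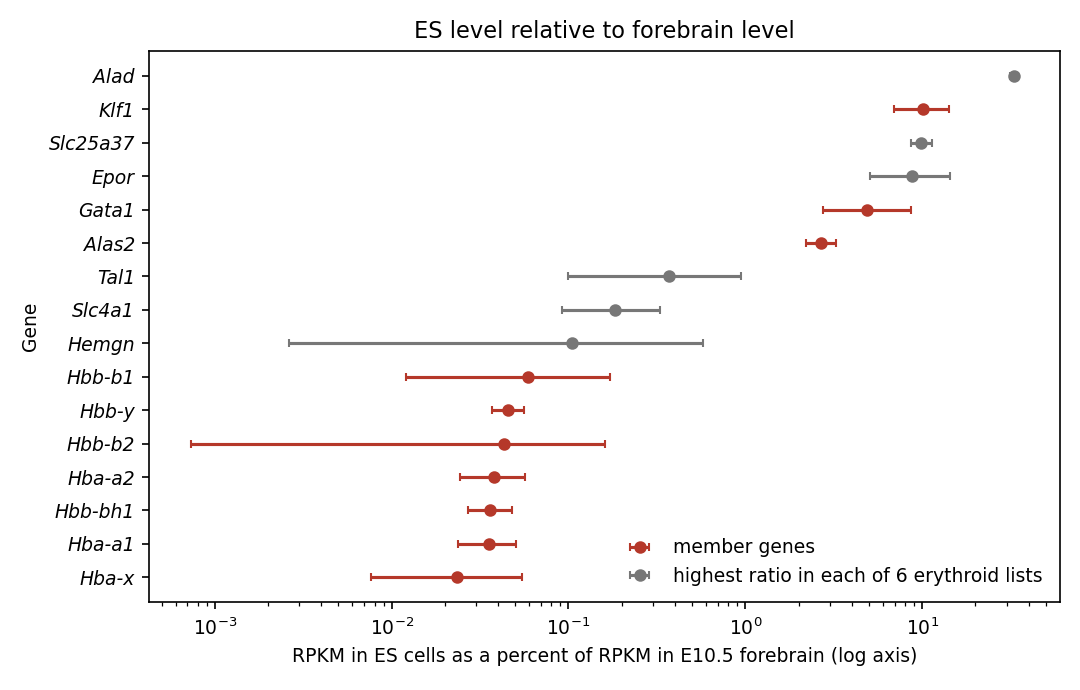
RPKM in ES cells as a percent of RPKM in E10.5 forebrain (log axis) for the 10 members (red) and for the gene with the highest log2 ratio in each of 6 erythroid lists (grey), 1 sample each. Bars are 95% counting intervals. The 7 globins lie from 0.0234% to 0.0588%, whereas *Alas2* lies at 2.69% and *Klf1* at 10.1%, with *Gata1* between them. The interval of *Gata1* overlaps those of *Alas2* and *Klf1*.

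Close relatives of these members were not uniformly higher in forebrain. *Alas1*, the form of the enzyme used in all tissues, had an RPKM of 318.81 in ES cells and 414.83 in forebrain, a log2 ratio of 0.38 against 5.19 for *Alas2*. *Gata2*, which acts in blood stem cells and progenitors, had 7.65 and 109.14, and *Gata3* 0.92 and 41.08. *Klf2*, *Klf4* and *Klf5*, which belong to the pluripotency network of ES cells, had log2 ratios of -3.63, -4.54 and -6.28, opposite in sign to *Klf1* at 3.27.

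By the levels in both samples, the listed gene nearest to *Hbb-y* other than the members was *Mir675* at a distance of 3.14 on the log2(RPKM + 1) scale, then *AL672259.1*, *H19*, *Crabp1* and *Nnat*. *H19*, a non-coding RNA that hosts *Mir675*, had 27.79 in ES cells and 36519.94 in forebrain. Nearest to *Klf1* was *Rgs16*, at 27.66 and 284.18, a distance of 0.0388. With only 2 samples such distances compare levels alone.

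Within the clusters the remaining globin genes were also read. *Hbb-bh0*, a pseudogene of 129 exonic bases between *Hbb-y* and *Hbb-bh1*, had an RPKM of 9.46 in ES cells (1 read) and 20762.97 in forebrain (3270 reads), a log2 ratio of 10.95. Its longest exact match was 24 bases with *Hbb-bh1* and 21 bases with *Hbb-y*, shorter than a read of either length. Matches with mismatches were not searched, and whether reads of other globins were counted on it was not tested. *Hbb-bh2* had 0.00 and 24.90. The theta-like genes *Hbq1b* and *Hbq1a* of the alpha cluster were at 0.00 in ES cells and at 116.93 and 45.43 in forebrain.

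Genes beside the clusters had far smaller ratios than the globins. *Nprl3*, whose introns carry the main enhancers of the alpha-globin genes and which begins upstream of *Hba-x*, had 148.74 and 202.18, a log2 ratio of 0.44. *Mpg*, a DNA repair gene that lies within the span of *Nprl3* on the opposite strand, had 285.21 and 250.29 (-0.19). *Sh3pxd2b*, on the far side of the cluster, had 28.61 and 301.98 (3.36). The list of genes that flank alpha-globin genes held 9 genes, of which *Polr3k* and *Luc7l* lie on chromosomes 2 and 17 in the mouse, away from the cluster. Of these 9, 2 were at least 4-fold higher in forebrain and 0 lower, with a median log2 ratio of 0.44. Of all listed genes 14.4% were higher and 11.3% lower. Olfactory receptor genes beside the beta cluster, where listed, had an RPKM of 0.00 in ES cells and at most 0.43 in forebrain.

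**Figure D4:**
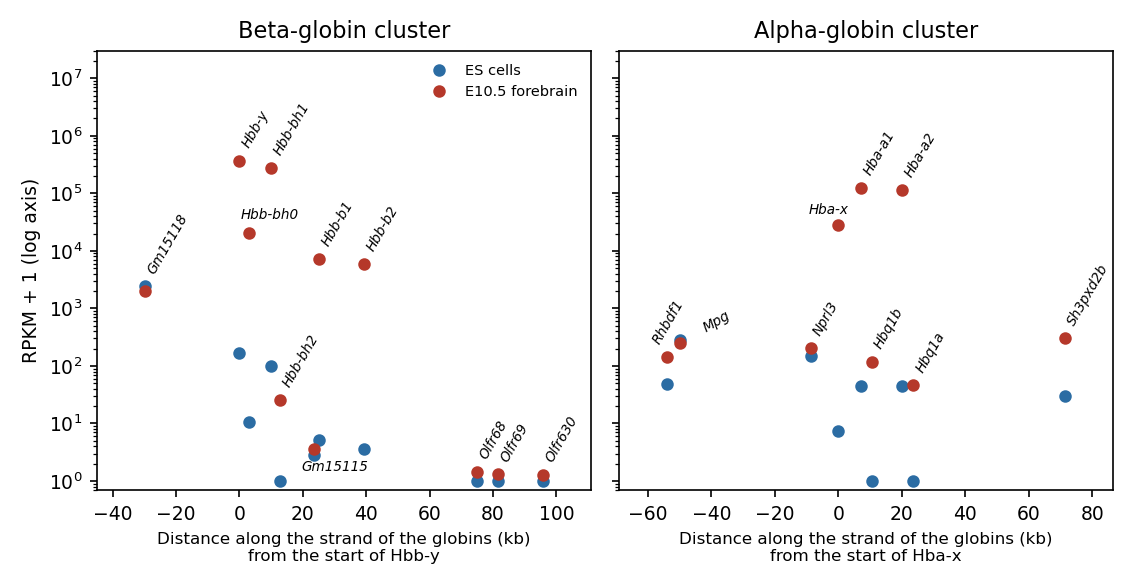
RPKM + 1 (log axis) of the listed genes in and around the beta-globin cluster (left) and the alpha-globin cluster (right), against distance in kb from the start of *Hbb-y* or *Hba-x* along the strand of the globins, in ES cells (blue) and E10.5 forebrain (red), 1 sample each. In the beta cluster the forebrain RPKM is 367633.15 at *Hbb-y* and 6006.66 at *Hbb-b2*, without a steady decline between them. *Hbb-bh0* has 20762.97, *Hbb-bh1* 277515.80 and *Hbb-bh2* 24.90. The neighbours *Nprl3* and *Mpg* of the alpha cluster have close values in both samples.

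Other genes of the red cell programme were described by lists. Pooled over 6 erythroid lists, 34 of 86 genes were at least 4-fold higher in forebrain and 3 were lower, against 14.4% and 11.3% of all listed genes. The 4-fold counts of the single lists below stand beside the same shares. The lists were chosen with earlier results of these data known, so the counts are a description.

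The list of the red cell membrane and skeleton had the highest median log2 ratio among these, 4.53, with 14 of 20 genes at least 4-fold higher and 0 lower. *Slc4a1* had an RPKM of 2.75 in ES cells and 1494.99 in forebrain. *Add2*, which encodes beta-adducin, had 0.78 and 551.49. The lowest ratios were those of *Epb4.9* (-1.67) and of the glucose transporter gene *Slc2a1* (-1.33), which had 5048.43 in ES cells.

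Of the erythroid transcription factors, 9 of 16 were at least 4-fold higher and 0 lower, with a median of 3.12. *Tal1*, a partner of *Gata1*, had 1.12 and 303.49, a log2 ratio of 7.17. *Bcl11a* and *Sox6*, which repress embryonic globin genes in later red cells and are also expressed in the brain, had log2 ratios of 6.03 and 5.38. At the other end *Foxo3* had -1.37 and *Klf3* -0.54.

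Haem synthesis apart from *Alas2* showed modest ratios, with 0 of 10 genes past 4-fold in either direction and a median of 1.08. *Alad*, the enzyme after *Alas2*, had the highest at 1.59 (1008.80 and 3048.06). *Urod*, a later enzyme of the pathway, was above 1000 in both samples, with a log2 ratio of 0.10. The lowest was the mitochondrial carrier gene *Slc25a38*, at -0.34.

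In the iron list 2 of 12 genes were at least 4-fold higher and 1 lower, with a median of -0.17. These counts are near the shares of all listed genes, 14.4% and 11.3%. *Slc25a37*, the mitochondrial iron importer of red cell precursors, had 63.65 and 642.07, and the iron exporter gene *Slc40a1* a log2 ratio of 2.58. *Tfrc*, the transferrin receptor, was on the opposite side, with 13496.16 in ES cells and 2264.38 in forebrain (-2.57).

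Of the genes of erythropoietin and stem cell factor signalling, 4 of 10 were at least 4-fold higher and 1 lower. *Epor*, the erythropoietin receptor, had 11.35 and 129.20. *Socs3*, an inhibitor of cytokine signalling, had 1992.41 and 171.69, a log2 ratio of -3.53. Among erythroid cytosolic proteins 5 of 18 listed genes were higher and 1 lower, with *Hemgn* at 0.49 and 468.75, *Trim10* at 0.55 and 347.85, and *Alox15* at 82.34 and 1.00.

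Markers of other blood cells and of vessels were also read, beside the 14.4% of all listed genes that were at least 4-fold higher in forebrain. Of the endothelial list 12 of 15 genes were at least 4-fold higher, with *Emcn* at 0.34 and 239.64 and *Cdh5* at 1.53 and 325.70, while *Pecam1* (551.14 and 316.51) and *Eng* (385.03 and 177.15) were lower in forebrain. Of the macrophage list 11 of 15 were, with *C1qb* at 0.00 and 216.44, while *Cd68* was lower (394.82 and 70.70). Of the megakaryocyte list 9 of 12 were, with *Pf4* at 2.08 and 680.01, and of the granulocyte list 4 of 8. On reads per kb and per 1000000 these counts were 7 endothelial, 4 macrophage, 3 megakaryocyte and 0 granulocyte genes. With a pseudocount of 0.1 the granulocyte count was 7. The shares of all genes at these other settings are not given here, so 14.4% is not their comparison. Summed over each list, RPKM in ES cells and in forebrain was 1647 and 4478 for the endothelial genes, 537.7 and 1699 for the macrophage genes, 97.51 and 1495 for the megakaryocyte genes and 3.240 and 139.8 for the granulocyte genes. In ES cells 7 of the macrophage genes were listed at 0, *Ptprc*, the pan-leukocyte marker, among them, as were 3 of the megakaryocyte and 5 of the granulocyte genes.

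Lymphocyte genes and those of visceral endoderm and fetal liver were low in both samples or lower in forebrain. Of the lymphocyte list 0 of 9 were at least 4-fold higher, beside 14.4% of all genes, and 1 was lower, and no gene of it exceeded an RPKM of 4.50 in forebrain. Of the visceral endoderm and fetal liver list 0 of 8 were higher and 2 lower. The lower genes were *Hnf4a* (77.72 in ES cells on 320 reads and 0.00 in forebrain) and *Amn* (16.66 and 1.94). *Afp* had 0.59 and 4.71, and *Alb* 0.60 and 0.00. For genes at low levels the counts depend on the pseudocount and threshold. At a pseudocount of 0.1, 4 lymphocyte and 2 visceral endoderm and fetal liver genes were higher. The share of all genes at that pseudocount is not given here, so these counts have no comparison. With 2-fold on log2(RPKM + 1), 4 and 3 genes of these lists were higher, beside 25.8% of all genes. Summed RPKM was 12.70 and 14.55 for the lymphocyte list and 117.4 and 28.62 for the visceral endoderm and fetal liver list. The part of all these cells in the values of the members was not tested.

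**Figure D5:**
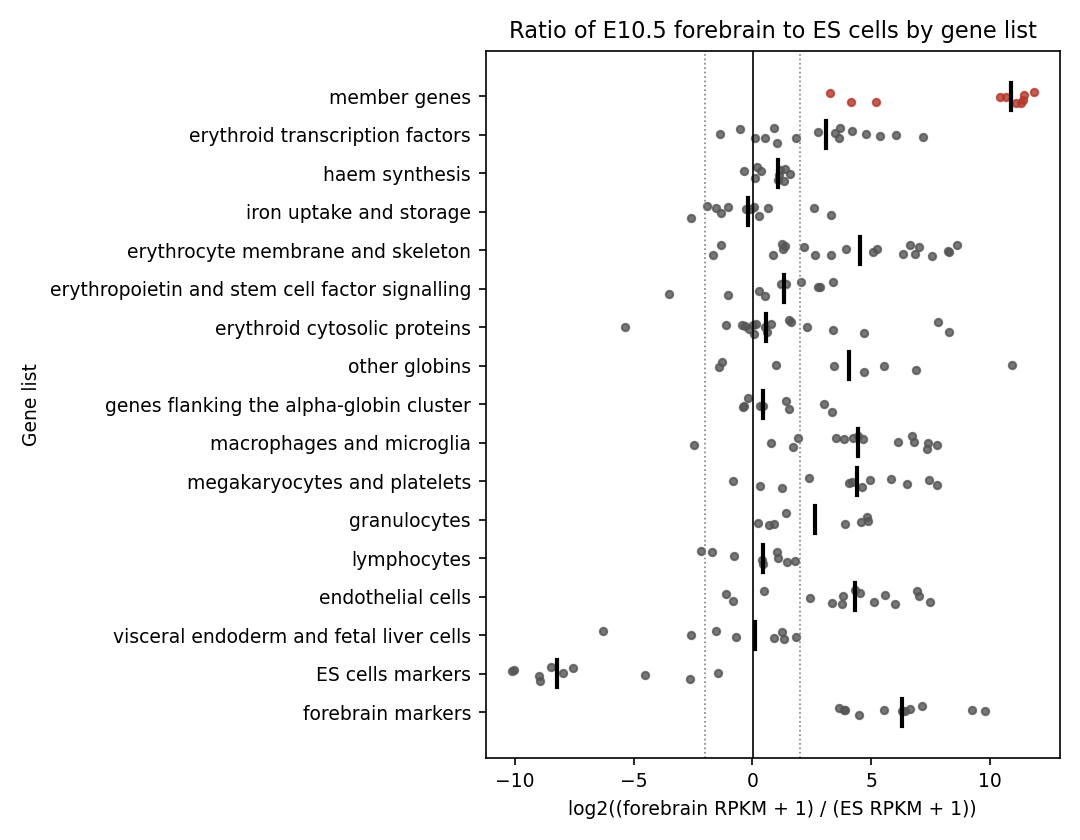
Log2((forebrain RPKM + 1)/(ES RPKM + 1)) of each gene by list, 1 sample per group, with the 10 members in red and the list median as a black bar. The solid line is the median of all genes (0.01) and the dotted lines mark 4-fold. The 7 globins lie from 10.43 to 11.85, beyond every gene of the other lists except *Hbb-bh0* at 10.95, while the haem synthesis list stays within 4-fold.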

How the data were processed

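Total RNA was depleted of rRNA and sequenced from one end (Illumina HiSeq) from 1 sample of ES cells and 1 of E10.5 forebrain. Reads were mapped to NCBIM37 (mm9) with the pipeline of HTSstation, and the submitters' processing notes name Bowtie (0.12.7). The authors deposited 1 RPKM value per gene and sample. The scaling between samples and the handling of multiply mapped reads are not given in the sources used here.

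RPKM values were used as deposited, and ratios were taken on log2(RPKM + 1), which understates the change of low genes. With 1 sample per group no test was made and no p-value is given. Groups were taken from the sample labels. Exonic lengths were computed from GENCODE M1, whose coordinates matched all 29311 genes. The step that 1 read is worth was estimated on genes of up to 2500 exonic bases and came to 1.2208 RPKM x kb in ES cells and 0.819 in forebrain. Of the low values, 59.2% and 61.1% lay within 0.05 reads of a whole multiple, so inferred reads are approximate, and they served for counting intervals (exact Poisson and binomial, Wilson for shares of all reads). A floor of 3 reads corresponded to an RPKM of 1.50 to 5.96 for the members in ES cells. Computations used Python (3.11.15), pandas (2.3.3), scipy (1.17.1) and biopython, and were tested on simulated data.

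The members and gene lists were chosen with earlier results of these data known. Named genes are the members, the genes with the 3 highest and 2 lowest ratios of each list or an RPKM of at least 1000, the genes nearest to *Hbb-y* and *Klf1*, and close paralogs. *Hbb-bh2*, *Nprl3*, *Mpg*, *Apex2*, *Alb*, *Ptprc*, *Polr3k* and the entries of the closing section were named outside that rule, after their values were seen. Of the lists, *Sox1*, *Eraf*, *Car1* and *Hbq1* were not analysed here, and some genes that meet the rule are not reported here. Alternatives were another scaling, pseudocount, threshold or filter, reads in place of RPKM and the higher of near-identical copies alone.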

Additional observations from a re-analysis of the deposited data

Results flagged for a closer look

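Entries of the tables outside the members and lists that bear on red cells are given as values. *Gm5226*, the name in the tables of the alpha-globin pseudogene *Hba-ps4* (chr17:26423308-26424006, mm9), had an RPKM of 191.19 in ES cells (70 reads) and of 3893.88 in E10.5 forebrain (2125 reads). Its ratio, 20.4 (16.0 to 26.2), was lower than that of any globin member, and its longest exact match with *Hba-a1* or *Hba-a2* was 47 bases. The gene of the erythroid microRNA *Mir144* (chr11:77886507-77886572) was listed at 0.00 in ES cells, where 3 reads would be an RPKM of 55.5, and at 409.54 in forebrain (33 reads). Its neighbour *Mir451* had 16.96 in ES cells on 1 read and 250.28 in forebrain on 22 reads, a ratio of 14.8 (2.39 to 609).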

How the results depend on the processing

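The 10 members kept their direction under every scaling, pseudocount and filter tried, with log2 ratios of 6.88 to 12.11 for the globins and of 1.76 to 5.46 for *Gata1*, *Klf1* and *Alas2*. All 10 stayed past 4-fold except with reads per 1000000 and per kb, where *Gata1* fell short (1.76) and 9 remained. On that scale values are 52.2 and 49.0 times smaller, so the added 1 weighs more by construction, and the median member ratio went from 10.90 to 8.04 and the pooled erythroid lists from 34 to 19 genes. The shares of all genes past 4-fold at these other scalings, pseudocounts and filters are not given here, so the counts at them have no comparison. The summed globin ratio of 2510 became 3033 when each sample was divided by its summed RPKM, which moved the median of all genes to 0.26, and 3763 as a plain quotient of reads, which leaves out both gene length and the greater depth of the forebrain library. On reads per kb and per 1000000 it was 2678. On reads the forebrain alpha-like to beta-like ratio became 0.480, the *Hba-x* share 12.8% and the embryonic beta-like share 97.5%. With only the higher of near-identical copies these were 0.232, 18.4% and 98.9%, and the ratio in ES cells was 0.184. Without the 1% of genes with the highest RPKM other than members, globin reads were 1.73% of reads in forebrain and 0.000690% in ES cells. With 2-fold in place of 4-fold, 49 erythroid list genes were higher and 12 lower, and 25.8% and 23.3% of all genes were. No paired analysis was possible because each group had 1 sample. Few reads limit the ES values of *Hba-x*, *Hbb-b1* and *Hbb-b2*.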
